A study of Mus musculus with 12 samples.

Results

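Cxxc5 and 9 genes that write, maintain, remove or read the methylation state of CpG dinucleotides were followed in mouse embryonic fibroblasts in which both single-stranded DNA binding proteins of the SSB family could be deleted. The 10 genes are Cxxc5, Uhrf1, Dnmt1, Dnmt3a, Dnmt3b, Tet1, Tet2, Tet3, Kdm2b and Cxxc1, out of 47517 lines of the deposited count table. Cxxc5 was chosen by its fold change, as it stood among the largest rises with induction of the deletion, so its values in every comparison that holds Cre-positive libraries are a description and carry no test. The other 9 were taken by gene family, and all 10 passed the filter on low counts that left 17609 genes.

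Each of 6 groups had 2 RNA-seq libraries, 12 in all. Every cell carried floxed alleles of Ssb1 (gene symbol Nabp2) and of Ssb2 (Nabp1), came from C57BL/6 embryos of embryonic day 13.5 and had been immortalised with SV40 large T antigen. The Cre-positive cells also carried Rosa-CreERT2, a Cre recombinase fused to an estrogen receptor domain and expressed from the broadly active Rosa locus, which 4-hydroxytamoxifen (4-OHT) switches on. Cre-positive cells were given 4-OHT for 5 days (libraries 11 and 12), given its vehicle ethanol for 5 days (3 and 4) or left untreated (7 and 8), and Cre-negative cells were likewise given 4-OHT (5 and 6), ethanol (9 and 10) or nothing (1 and 2). The labels do not say how many cultures or embryos stand behind the libraries, so p-values measure the spread between libraries, which may be technical, and a difference between Cre-positive and Cre-negative cells cannot be told apart from a difference between cultures.

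In mammals, DNA methylation is set de novo by DNMT3A and DNMT3B and copied to the new strand after replication by DNMT1, which UHRF1 recruits to hemimethylated sites. TET1, TET2 and TET3 oxidise 5-methylcytosine, the first step of its active removal. CXXC zinc fingers bind CpG that carries no methyl group. They are found in DNMT1, TET1 and TET3, in KDM2B and CXXC1, which bring chromatin complexes to CpG islands, and in CXXC5, which also binds Dishevelled and dampens WNT signalling and is known as a BMP-responsive gene in neural progenitors.

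The libraries held between 20201855 and 36367012 counts. Nabp1 stood at 3.4 and 3.96 CPM (counts scaled to a common library size) in Cre-positive cells after 4-OHT, against 14.5 and 15.9 after ethanol, and Nabp2 at 4.84 and 5.09, against 19.8 and 22.6. In Cre-negative cells Nabp1 lay between 24.5 and 27.5 CPM and Nabp2 between 26.2 and 31.2 CPM in all 6 libraries. Of 10 fibroblast markers 8 passed the filter, with a sum of 6640 to 7120 CPM in the Cre-positive and 5150 to 5810 CPM in the Cre-negative libraries. The fibroblast matrix genes Dcn and Lum were near 0, at no more than 0.883 and 0.34 CPM. The surface marker Thy1 was lower still, at no more than 0.147 CPM in Cre-positive libraries and 0 in Cre-negative ones. Summed markers of other cells were low over all 12 libraries, at 0.589 to 2.94 CPM for epithelium, 2.58 to 4.34 CPM for blood, 0.354 to 1.46 CPM for endothelium, 0.859 to 2.02 CPM for muscle and 0.0684 to 0.479 CPM for pluripotent and germ cells. Neural markers summed to 63.4 to 94.4 CPM, and their part in the results was not tested. In such bulk libraries, fewer cells of a type and less RNA per cell cannot be told apart.

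Cxxc5 (chromosome 18, 35829397 to 35861688, plus strand of GRCm38) was low in Cre-positive cells that had not been given 4-OHT and severalfold higher in every other group. Its level was 4.56 and 4.63 CPM in Cre-positive cells after 4-OHT, 0.442 and 0.637 CPM after ethanol and 0.747 and 0.737 CPM untreated. Cre-negative cells had 5.39 and 5.75 CPM after 4-OHT, 5.28 and 6.02 CPM after ethanol and 3.44 and 3.98 CPM untreated. The 4 Cre-positive libraries without 4-OHT thus stood below the other 8 with no overlap, and the level after 4-OHT in Cre-positive cells fell within the range of the Cre-negative cells. These levels rest on 12 to 19 counts in each of the 4 low libraries and on 78 to 176 counts in each of the other 8.

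**Figure D1:**
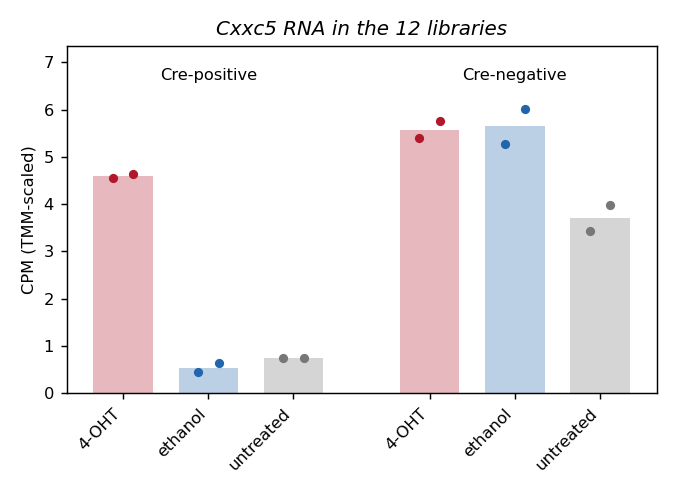
Cxxc5 level (TMM-scaled CPM, linear axis) in the 6 groups; bars are means of 2 libraries and points are the libraries. Cre-positive cells had a mean of 4.59 CPM after 4-OHT, against 0.54 CPM after ethanol and 0.742 CPM untreated, and all Cre-negative libraries lay between 3.44 and 6.02 CPM.

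The mean of Cxxc5 in Cre-positive cells was 4.59 ± 0.05 CPM after 4-OHT, against 0.54 ± 0.14 CPM after ethanol (SD, n = 2 each), a log2 fold change of 3.07 (8.38-fold). Against untreated Cre-positive cells, at 0.742 ± 0.0072 CPM, the log2 fold change was 2.62 (6.15-fold). Ranked by fold change, Cxxc5 was 44th of 17609 genes among the rises over ethanol and 84th among those over untreated cells. The 2 rankings share the 4-OHT libraries.

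In untreated cells, the log2 fold change of Cxxc5 in Cre-positive over Cre-negative cells was -2.32, or 0.2 of the Cre-negative level, and that of ethanol over untreated Cre-positive cells was -0.45. Comparisons among Cre-negative cells, which the choice of Cxxc5 did not use, were tested with edgeR's quasi-likelihood test, with Benjamini-Hochberg adjustment over all 17609 genes. No difference between 4-OHT and ethanol was detectable there (log2 -0.02, SE 0.128, edgeR adjusted p = 0.959). Cxxc5 was higher after ethanol than in untreated Cre-negative cells by a log2 fold change of 0.60 (SE 0.139, edgeR adjusted p = 0.00269), which was 0.50 (edgeR adjusted p = 0.0528) without library 10. In order of level, the ethanol and 4-OHT groups of Cre-negative cells came first and overlapped, followed by Cre-positive 4-OHT, Cre-negative untreated, Cre-positive untreated and Cre-positive ethanol, and no other neighbours in that order overlapped.

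A pattern like that of Cxxc5 across 12 libraries and 6 groups was sought among 11490 genes by Pearson's r of log2 CPM, given as a description since the points share libraries and groups. The 5 most alike were Stard10, which encodes a phospholipid transfer protein (r = 0.975), Murc, a caveola coat gene (0.975), Mtx3, a mitochondrial outer membrane gene (0.969), Bri3 (0.966) and Ssr1, a subunit of the translocon-associated complex (0.966). Their amplitude was smaller: Stard10 averaged 6.21 CPM in Cre-positive cells after 4-OHT, 3.17 after ethanol and 3.31 untreated, against 6.04, 6.53 and 5.79 CPM in Cre-negative cells with the same treatments. Murc averaged 26.6, 18.9 and 20.7 CPM in Cre-positive cells after 4-OHT, after ethanol and untreated, and 27.4, 28 and 24.8 CPM in Cre-negative cells.

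The low level of Cxxc5 in untreated Cre-positive cells was not shared by its neighbours on the chromosome. Within 200 kb, 13 other genes were in the table and 6 passed the filter, 1 of them, Ecscr, through the Cre-positive libraries alone. Of the other 5, 4 were higher in untreated Cre-positive than Cre-negative cells and 0 were lower, where 24.4% of all genes were called higher and 24.6% lower. The nearest tested neighbour, Ube2d2a, a ubiquitin-conjugating enzyme gene 19903 bp away, had a log2 fold change of 0.50 (edgeR adjusted p = 3.57e-08), and Tmem173, which encodes the DNA-sensing adaptor STING, had 0.43 (edgeR adjusted p = 3.22e-05). Ecscr, an endothelial surface protein gene, had 5.03 to 10.9 CPM in the 6 Cre-positive libraries and 0 or 1 count in each of the 6 Cre-negative ones. With 4-OHT against ethanol in Cre-positive cells, Dnajc18 (log2 0.30, edgeR adjusted p = 0.000149) and Ecscr (log2 0.85, edgeR adjusted p = 2.17e-05) rose and 0 of the 6 fell, where 21.1% of all genes rose and 17.2% fell. In Cre-negative cells none of the other 5 passed the test, where 5.99% of all genes did, and Ecscr had too few counts there to pass. In Cre-positive cells the 4 endothelial markers summed to 1.3 and 1.46 CPM after 4-OHT, against 0.536 and 0.626 CPM after ethanol. The sums came mostly from Tek (log2 1.12, SE 0.368, edgeR adjusted p = 0.0204), with Cdh5 at or near 0. The part of the endothelial markers in the result for Ecscr was not tested. Gm29417, annotated antisense to Cxxc5, had 0 to 3 counts per library.

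With 4-OHT against ethanol in Cre-positive cells, the other 9 genes moved little and mostly downward. Of these, 0 rose, 5 fell (Uhrf1, Dnmt1, Cxxc1, Tet3 and Tet2) and 4 did not pass the test, where 38.3% of all genes tested passed in either direction, 21.1% upward and 17.2% downward. Their median log2 fold change was -0.24, against 0.03 over all genes. Against untreated cells 1 of 9 rose (Kdm2b), 3 fell (Uhrf1, Dnmt1 and Cxxc1) and 5 did not pass, with 39.2% of all genes passing, 21.0% upward and 18.2% downward. In Cre-negative cells, 1 of the 10 genes rose with 4-OHT against ethanol (Tet3) and 0 fell, against 5.99% of all genes called, 3.33% upward and 2.65% downward, and the median log2 fold change of the 10 was -0.01. The change with 4-OHT in Cre-positive cells minus that in Cre-negative cells was below 0 and past the test for Uhrf1, Dnmt1 and Tet3 and for none of the other 6, with 28.3% of all genes called, 14.5% above and 13.8% below 0. Since the comparison of Cre-positive cells led to this set of genes, its counts are given as a description.

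**Figure D2:**
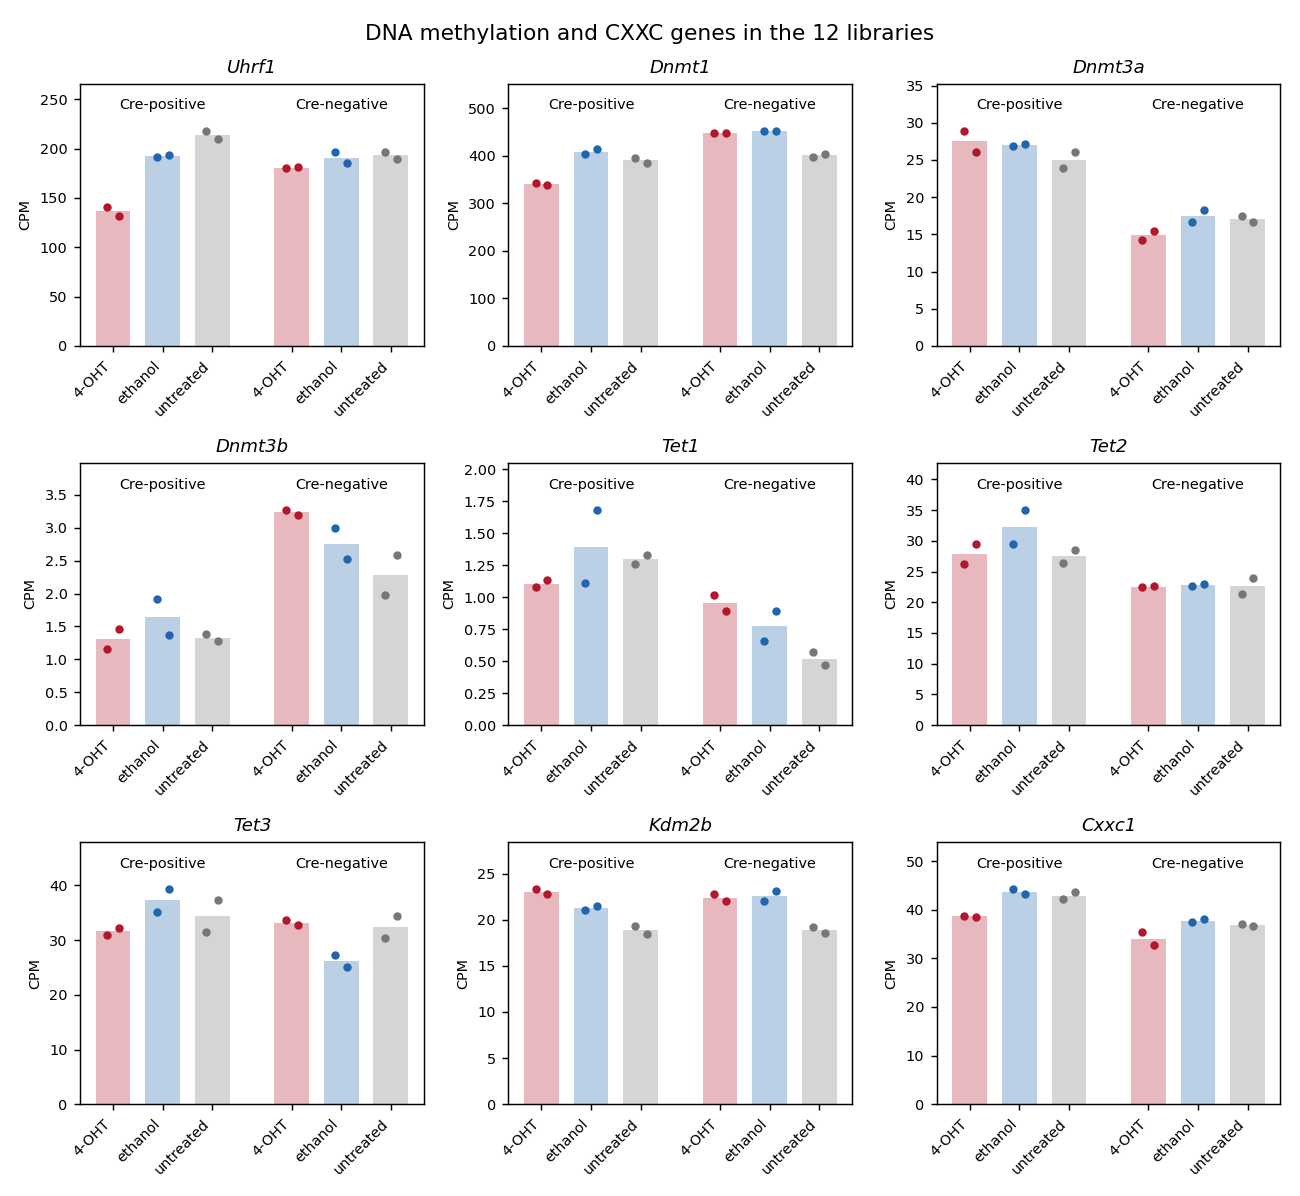
Levels of the 9 other genes (TMM-scaled CPM, linear axes that start at 0, each with its own scale) in the 6 groups; bars are means of 2 libraries and points are the libraries. Uhrf1 and Dnmt1 were lowest in Cre-positive cells after 4-OHT. Dnmt3a, Tet2 and, by narrow gaps, Dnmt3b, Tet1 and Cxxc1 separated Cre-positive from Cre-negative libraries under all treatments. The share of all genes with such a separation was not counted, and 49.0% of all genes were called between the untreated groups.

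Levels per kilobase of annotated exon differed widely between the 10 genes. In Cre-positive cells after 4-OHT, Dnmt1 stood at 46.2 and Uhrf1 at 32.2 CPM per kb, Cxxc1 at 9.83, Kdm2b at 2.13, Tet3 at 1.89, Tet2 and Dnmt3a at 1.65, Cxxc5 at 1.53, Dnmt3b at 0.257 and Tet1 at 0.0712 CPM per kb. Dnmt1 made up between 96.0% and 97.5% of the summed per-kb level of the 3 DNA methyltransferase genes in the 6 groups, and Tet1 between 1.02% and 2.22% of that of the 3 TET genes. Dnmt3l, the catalytically inactive cofactor of the de novo enzymes, lay between 0 and 0.198 CPM.

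Both maintenance genes fell in Cre-positive cells given 4-OHT. Both are classical S phase genes under E2F control, and the part of E2F in their decrease was not tested. The promoter windows shown, 1 for each gene, are those in which E2F letters were found. They come from RefSeq (GRCm38.p6), run 5′ to 3′ on the gene's strand from 250 bases before to 50 bases after the annotated start, and cover chr9:20952574-20952873 (minus strand) for Dnmt1 and chr17:56304063-56304362 (plus strand) for Uhrf1. Capitals mark the E2F letters TTTGGCGC, TTTGCCGC, TTTCGCGC or TTTCCCGC on either strand.
Dnmt1: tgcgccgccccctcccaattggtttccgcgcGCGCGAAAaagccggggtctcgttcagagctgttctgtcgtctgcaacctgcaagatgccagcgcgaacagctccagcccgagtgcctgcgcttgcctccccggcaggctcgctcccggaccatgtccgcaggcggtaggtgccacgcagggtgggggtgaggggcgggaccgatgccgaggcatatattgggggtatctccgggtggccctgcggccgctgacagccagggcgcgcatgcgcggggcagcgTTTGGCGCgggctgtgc
Uhrf1: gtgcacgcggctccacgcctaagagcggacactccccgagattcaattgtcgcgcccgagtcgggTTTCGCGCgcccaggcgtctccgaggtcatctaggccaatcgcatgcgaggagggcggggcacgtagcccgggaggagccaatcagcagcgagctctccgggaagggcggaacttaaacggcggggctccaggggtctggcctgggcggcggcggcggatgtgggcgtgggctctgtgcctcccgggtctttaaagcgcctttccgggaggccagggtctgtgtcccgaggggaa
Each window held 33 CG dinucleotides, where the median over 32851 windows of 300 bases was 7. The Dnmt1 window had 2 matches and the Uhrf1 window 1, and 2.26% of all windows held at least 1. All of these motifs contain CG, so that share is not a like comparison for windows this rich in CG. The share among CG-rich windows was not counted. The table had 16 windows for 8 of the 10 genes, 1 for each annotated start, and the other 14 held none of these letters. Among these 14 were 2 further windows of Dnmt1, with 12 and 2 CG, and 1 of Uhrf1, with 12 CG, which are not printed, so the pair shown is the one with matches. The motif was chosen with the results known, and such a match is a description of the letters alone.

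Uhrf1 (chromosome 17, 56303321 to 56323486), which encodes the reader of hemimethylated DNA, had 141 and 132 CPM in Cre-positive cells after 4-OHT, 192 and 194 CPM after ethanol and 218 and 210 CPM untreated. Cre-negative cells had 180 and 181 CPM after 4-OHT, 197 and 185 CPM after ethanol and 197 and 190 CPM untreated. Both Cre-positive 4-OHT libraries were below the other 10. How many of all genes show such a separation was not counted. The log2 fold change in Cre-positive cells was -0.50 against ethanol (SE 0.0421, edgeR adjusted p = 1.32e-08), a change of -29.3%, and -0.65 against untreated cells (SE 0.0424, edgeR adjusted p = 1.73e-10). In Cre-negative cells it was -0.08 against ethanol (edgeR adjusted p = 0.289), and the difference between the 2 effects was -0.41 (SE 0.0595, edgeR adjusted p = 2.61e-05).

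Dnmt1 (chromosome 9, 20907209 to 20959888), the maintenance methyltransferase gene, had 342 and 339 CPM in Cre-positive cells after 4-OHT, 403 and 413 CPM after ethanol and 396 and 385 CPM untreated. Cre-negative cells had 447 and 448 CPM after 4-OHT, 452 and 451 CPM after ethanol and 397 and 404 CPM untreated. Here too the Cre-positive 4-OHT libraries were below all others, by a smaller step. The log2 fold change in Cre-positive cells was -0.26 against ethanol (SE 0.0348, edgeR adjusted p = 4.84e-06), a change of -16.5%, and -0.20 against untreated cells (SE 0.035, edgeR adjusted p = 0.000105). In Cre-negative cells it was -0.01 against ethanol (edgeR adjusted p = 0.88), and the difference between the effects was -0.25 (SE 0.0491, edgeR adjusted p = 0.00069).

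**Figure D3:**
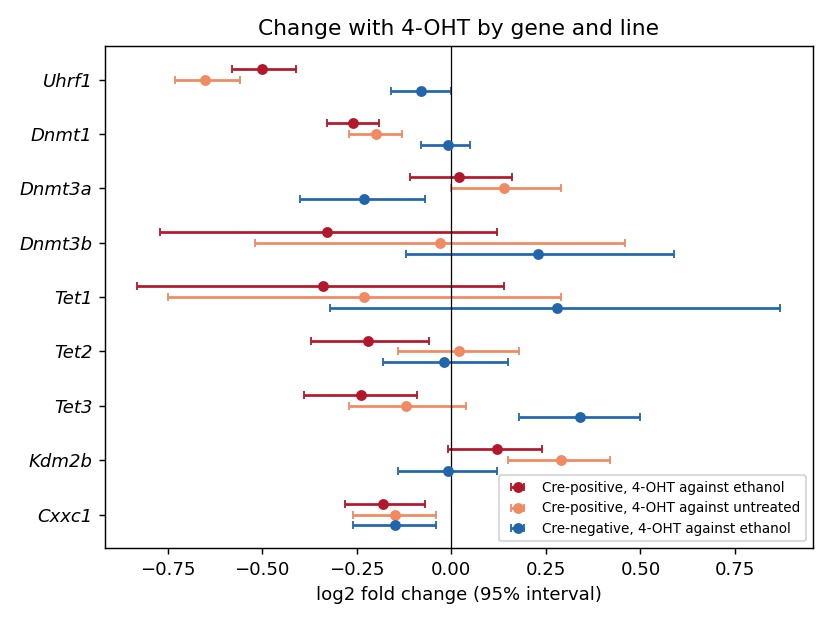
Log2 fold change of the 9 other genes with 4-OHT, as points with 95% intervals, in Cre-positive cells against ethanol and against untreated cells and in Cre-negative cells against ethanol. The intervals of Uhrf1 and Dnmt1 in Cre-positive cells lie below 0 against both references, at -0.50 and -0.26 over ethanol, and those in Cre-negative cells are near 0, at -0.08 and -0.01.

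A broad list of 16 genes around maintenance methylation, not all of them partners of DNMT1 or UHRF1, had 14 tested. With 4-OHT against ethanol in Cre-positive cells 0 of these rose, 9 fell and 5 did not pass the test. Their median log2 fold change was -0.19, against 0.03 over all genes, of which 21.1% rose and 17.2% fell. None of the 14 passed the test in Cre-negative cells, where 5.99% of all genes did. Lig1, the replicative DNA ligase gene whose product also binds UHRF1, had 69.8 ± 2 CPM after 4-OHT, against 96 ± 1.3 CPM after ethanol (SD, n = 2 each; log2 -0.46, SE 0.0433, edgeR adjusted p = 5.82e-08). Cdca7, whose product helps the remodeler HELLS open chromatin for methylation, fell by 0.39 on the log2 scale (edgeR adjusted p = 7.78e-06), and Smchd1, needed for methylation of the inactive X chromosome, by 0.30 (edgeR adjusted p = 1.69e-06). Setdb1, a histone H3 lysine 9 methyltransferase gene, fell by 0.30 on the log2 scale (edgeR adjusted p = 9.81e-06). Among 25 S phase genes, all tested, 2 rose and 8 fell (median log2 -0.08), with 12 lower when ethanol and untreated cells together served as the reference and 1 higher there, with only the compared groups in the fit, by DESeq2 and without library 4 or 11. Cdc45, a replicative helicase subunit gene, fell by 0.43 on the log2 scale (edgeR adjusted p = 6.22e-07), Tk1, the thymidine kinase gene, by 0.36 (edgeR adjusted p = 2.44e-06) and Mcm7 by 0.22 (edgeR adjusted p = 8.67e-05). The remaining 15 of the 25 did not pass the test. Mcm4 lay the other way, at 321 ± 3.9 CPM after 4-OHT, against 276 ± 0.93 CPM after ethanol (SD, n = 2 each). Lig1 and Pcna are in both lists. The part of proliferation in the decrease of Uhrf1 and Dnmt1 was not tested.

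The genes most like Uhrf1 across the 12 libraries, by the same measure, were Abcc1, a drug efflux transporter gene (r = 0.974), Ddhd2, a phospholipase gene (0.973), Ubr2, a ubiquitin ligase gene (0.97), Sike1 (0.969) and Fbxo18, a DNA helicase gene (0.964).

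The de novo genes separated Cre-positive from Cre-negative cells, and neither passed the test for 4-OHT against ethanol. Dnmt3a (chromosome 12, 3806007 to 3914443) had 28.9 and 26.1 CPM in Cre-positive cells after 4-OHT, 26.9 and 27.2 CPM after ethanol and 23.9 and 26.1 CPM untreated. Cre-negative cells had 14.2 and 15.5 CPM after 4-OHT, 16.7 and 18.3 CPM after ethanol and 17.4 and 16.6 CPM untreated, so all 6 Cre-positive libraries were above all 6 Cre-negative ones. In untreated cells the log2 fold change of Cre-positive over Cre-negative was 0.55 (SE 0.0802, edgeR adjusted p = 5.2e-06). With 4-OHT against ethanol it was 0.02 in Cre-positive cells (edgeR adjusted p = 0.813) and -0.23 in Cre-negative cells (SE 0.0831, edgeR adjusted p = 0.108), and the difference of 0.26 had an edgeR adjusted p of 0.0838, which became 0.0464 (difference 0.32) without library 12.

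Dnmt3b (chromosome 2, 153649450 to 153687730) was the less abundant de novo gene and lay the other way round. It had 1.16 and 1.46 CPM in Cre-positive cells after 4-OHT, 1.92 and 1.37 CPM after ethanol and 1.38 and 1.28 CPM untreated, against 3.27 and 3.2, 2.99 and 2.53, and 1.98 and 2.58 CPM in Cre-negative cells with the same treatments. All Cre-positive libraries, at 1.92 CPM or less, were below all Cre-negative ones, at 1.98 CPM or more, a narrow gap. In untreated cells the log2 fold change was -0.79 (SE 0.235, edgeR adjusted p = 0.00796), and -0.57 (edgeR adjusted p = 0.129) without library 2. With 4-OHT against ethanol in Cre-positive cells it was -0.33 (SE 0.228, edgeR adjusted p = 0.277). Dnmt3a made up 3.44%, 2.84% and 2.75% of the summed per-kb methyltransferase level in Cre-positive cells after 4-OHT, after ethanol and untreated, against 1.44%, 1.67% and 1.83% in Cre-negative cells.

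Tet1 (chromosome 10, 62804570 to 62908996) was the rarest of the dioxygenase genes and was higher in Cre-positive cells under every treatment. It had 1.08 and 1.13 CPM after 4-OHT, 1.11 and 1.68 CPM after ethanol and 1.26 and 1.33 CPM untreated in Cre-positive cells, against 1.02 and 0.892, 0.659 and 0.889, and 0.573 and 0.466 CPM in Cre-negative cells. No Cre-positive library overlapped the Cre-negative ones, though the gap between the 4-OHT groups was narrow. In untreated cells Tet1 was higher in Cre-positive cells by a log2 fold change of 1.32 (2.49-fold, SE 0.326, edgeR adjusted p = 0.00191). With 4-OHT against ethanol in Cre-positive cells the log2 fold change was -0.34 (SE 0.248, edgeR adjusted p = 0.292).

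Tet2 (chromosome 3, 133463679 to 133545139), which lacks a CXXC domain of its own, had 26.2 and 29.4 CPM in Cre-positive cells after 4-OHT, 29.4 and 35 CPM after ethanol and 26.4 and 28.5 CPM untreated. In Cre-negative cells it lay between 21.4 and 23.9 CPM in all 6 libraries, below every Cre-positive one. Among Cre-positive cells the 4-OHT libraries met the ethanol ones at 29.4 CPM and overlapped the untreated ones. The decrease with 4-OHT against ethanol in Cre-positive cells (log2 -0.22, SE 0.078, edgeR adjusted p = 0.0322) turned on single libraries, with an adjusted p of 0.504 (log2 -0.08) without library 4 and 0.308 (log2 -0.13) without library 11. Against untreated cells the log2 fold change was 0.02 (edgeR adjusted p = 0.893), and DESeq2 gave an adjusted p of 0.0744 for the comparison with ethanol. In untreated cells Tet2 was higher in Cre-positive cells by 0.27 on the log2 scale (SE 0.0864, edgeR adjusted p = 0.0126), with an adjusted p of 0.126 without library 1 and 0.104 without library 8.

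Tet3 (chromosome 6, 83362373 to 83459084) moved in opposite directions with 4-OHT in the 2 kinds of cells when ethanol was the reference. It had 30.9 and 32.3 CPM in Cre-positive cells after 4-OHT, 35.2 and 39.3 CPM after ethanol and 31.5 and 37.3 CPM untreated. Cre-negative cells had 33.6 and 32.8 CPM after 4-OHT, 27.3 and 25.1 CPM after ethanol and 30.4 and 34.5 CPM untreated. The Cre-positive 4-OHT libraries were below ethanol but overlapped untreated cells, and the Cre-negative 4-OHT libraries were above ethanol and within the untreated range.
The log2 fold change with 4-OHT against ethanol was -0.24 in Cre-positive cells (SE 0.076, edgeR adjusted p = 0.0155) and 0.34 in Cre-negative cells (SE 0.081, edgeR adjusted p = 0.0133), with a difference of -0.58 (SE 0.111, edgeR adjusted p = 0.000477). The Cre-positive call was lost without library 4 (log2 -0.16, adjusted p = 0.199) or 11 (log2 -0.21, adjusted p = 0.112), and the Cre-negative call without library 5, 6 or 10 (adjusted p = 0.134, 0.0581 and 0.207). Tet3 was lower after ethanol than in untreated Cre-negative cells (log2 -0.31, SE 0.0815, edgeR adjusted p = 0.00685), a call lost without library 2 (adjusted p = 0.175) or 10 (0.117). Against untreated cells, 4-OHT gave -0.12 in Cre-positive cells (edgeR adjusted p = 0.254). B230319C09Rik, on the opposite strand of Tet3, had 23 to 56 counts per library, against 689 to 1173 for Tet3.

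Kdm2b (chromosome 5, 122870665 to 122989823), which encodes a histone H3 lysine 36 demethylase that brings a variant Polycomb complex to CpG islands, had 23.3 and 22.8 CPM in Cre-positive cells after 4-OHT, 21.1 and 21.5 CPM after ethanol and 19.3 and 18.5 CPM untreated. Cre-negative cells had 22.8 and 22 CPM after 4-OHT, 22 and 23.1 CPM after ethanol and 19.2 and 18.6 CPM untreated. In both kinds of cells the 2 untreated libraries were the lowest. Against untreated Cre-positive cells, it was higher after 4-OHT by a log2 fold change of 0.29 (SE 0.0675, edgeR adjusted p = 0.00185), whereas against ethanol the value was 0.12 (edgeR adjusted p = 0.158), or 0.20 (edgeR adjusted p = 0.00593) with ethanol and untreated cells together as the reference. It was also higher after ethanol than in untreated Cre-negative cells, by 0.26 (SE 0.068, edgeR adjusted p = 0.00814), a call lost without library 2 or 10. Whether counting used the strand is not stated in the labels or notes, and Rnf34 lies across Kdm2b on the other strand with 676 to 1169 counts per library, against 377 to 823 for Kdm2b, so reads of the pair may not be fully separated.

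Cxxc1 (chromosome 18, 74216124 to 74221496) encodes the CpG-binding subunit of the SET1 histone H3 lysine 4 methyltransferase complexes. It had 38.8 and 38.5 CPM in Cre-positive cells after 4-OHT, 44.2 and 43.2 CPM after ethanol and 42.2 and 43.6 CPM untreated, and 35.4 and 32.7, 37.4 and 38, and 37.1 and 36.7 CPM in Cre-negative cells with the same treatments. In each kind of cells the 4-OHT libraries were below the other 4, and all 6 Cre-positive libraries, at 38.5 CPM or more, were above all 6 Cre-negative ones, at 38.0 CPM or less. The log2 fold change with 4-OHT against ethanol was -0.18 in Cre-positive cells (SE 0.0528, edgeR adjusted p = 0.011) and -0.15 in Cre-negative cells (SE 0.0559, edgeR adjusted p = 0.122), and the difference of -0.03 did not pass the test (edgeR adjusted p = 0.834). The Cre-positive call was lost without library 3, 11 or 12 (adjusted p = 0.0552, 0.0513 and 0.0541). Against untreated Cre-positive cells it was -0.15 (edgeR adjusted p = 0.033), with an adjusted p of 0.106 by DESeq2 and 0.126 with no filter on low counts, and of 0.0622 without library 7, 0.174 without 8, 0.101 without 11 and 0.112 without 12.

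Partners of these CpG island proteins were mixed. Of 16 SET1, variant Polycomb and KDM2B partner genes, all tested, 2 rose and 5 fell with 4-OHT against ethanol in Cre-positive cells (median log2 -0.07), with 6 higher when ethanol and untreated cells together served as the reference and 3 lower without library 11. Over all genes, 21.1% rose and 17.2% fell with 4-OHT against ethanol in Cre-positive cells. Wdr5 (log2 -0.41, edgeR adjusted p = 2.98e-07) and Ash2l (log2 -0.36, edgeR adjusted p = 4.04e-07), core subunits of the SET1 and MLL complexes, fell, as did Usp7, whose product stabilises DNMT1 and UHRF1 (log2 -0.19, edgeR adjusted p = 0.000267). Skp1a, part of the KDM2B complex and of SCF ubiquitin ligases, rose (log2 0.33, edgeR adjusted p = 2.35e-06). Of 6 further CXXC domain genes 5 were tested, and the MLL genes Kmt2a (log2 -0.56, SE 0.127, edgeR adjusted p = 0.00152) and Kmt2b (log2 -0.32, SE 0.101, edgeR adjusted p = 0.0158) fell, and 0 of the 5 fell without library 4 and 1 without library 11. Cxxc4, the closest relative of Cxxc5, was near 0 with at most 0.198 CPM.

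The 2 kinds of cells differed before any treatment. In untreated cells 5 of the 9 genes other than Cxxc5 were higher in Cre-positive cells (Tet1, Dnmt3a, Tet2, Cxxc1 and Uhrf1), 1 was lower (Dnmt3b) and 3 did not pass the test (Dnmt1, Tet3 and Kdm2b), where 49.0% of all genes were called, 24.4% upward and 24.6% downward. Cxxc1 had a log2 fold change of 0.22 (SE 0.056, edgeR adjusted p = 0.00263). Uhrf1 had 0.15 (SE 0.0421, edgeR adjusted p = 0.00632), with an adjusted p of 0.0611 without library 2 and 0.0735 without library 7. Dnmt1 (log2 -0.04), Tet3 (0.08) and Kdm2b (0.00) had adjusted p-values of 0.433, 0.473 and 0.98 by edgeR.

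**Figure D4:**
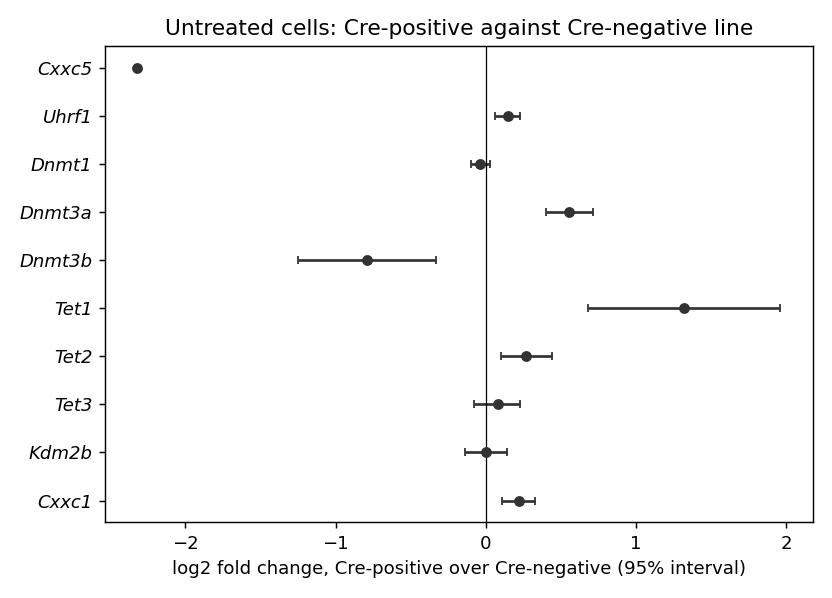
Log2 fold change of Cre-positive over Cre-negative untreated cells for the 10 genes, as points with 95% intervals (none for Cxxc5, which was not tested). Cxxc5 at -2.32 and Tet1 at 1.32 lie farthest from 0, and Dnmt1, Tet3 and Kdm2b have intervals that include 0.

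Cxxc5 was both lower in untreated Cre-positive than Cre-negative cells and higher in Cre-positive cells after 4-OHT than after ethanol, 2 comparisons with no library in common. Of 464 genes at least 2-fold higher after 4-OHT than after ethanol in Cre-positive cells, 51 (11%) were also at least 2-fold lower in untreated Cre-positive than Cre-negative cells, and 130 (28%) were at least 2-fold higher there. Over all genes tested these shares were 4.9% and 7.68%. Taken the other way, 5.91% of the genes lower and 9.62% of those higher in untreated Cre-positive cells were among the 464. These 464 are out of 17609 genes tested. Cxxc5, which was chosen on these libraries, was not left out of the counts.

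Some of the 10 genes differed between ethanol and untreated cells, groups for which ethanol and time in culture cannot be told apart, as no time is given for untreated cells. In Cre-positive cells 0 of the 9 tested were higher after ethanol and 1 was lower (Uhrf1, log2 -0.15, SE 0.0419, edgeR adjusted p = 0.0175), where 14.9% of all genes were called, 8.11% upward and 6.84% downward, and that call was lost without library 3, 4 or 7 (adjusted p = 0.059, 0.0621 and 0.162). In Cre-negative cells 3 of 10 were higher after ethanol (Cxxc5, Kdm2b and Dnmt1) and 1 was lower (Tet3), where 24.5% of all genes were called, 12.5% upward and 12.0% downward. Dnmt1 had a log2 fold change of 0.17 in Cre-negative cells (SE 0.0348, edgeR adjusted p = 0.000862) and had 0.06 in Cre-positive cells (edgeR adjusted p = 0.258).

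Of 18 genes of the cycle that supplies the methyl group 16 were tested, and with 4-OHT against ethanol in Cre-positive cells 2 rose, 10 fell and 4 did not pass the test (median log2 -0.26), against 1 and 1 in Cre-negative cells, and without library 4 the count of rises was 1. Over all genes 21.1% rose and 17.2% fell in Cre-positive cells, and 3.33% rose and 2.65% fell in Cre-negative cells. Mtr, the methionine synthase gene, had 22.7 ± 0.37 CPM after 4-OHT in Cre-positive cells, against 33.6 ± 2.2 CPM after ethanol (SD, n = 2 each), a log2 fold change of -0.57 (edgeR adjusted p = 9.05e-07). Mat2a, which makes S-adenosylmethionine, had 212 ± 2.1 CPM, against 271 ± 2.2 CPM (SD, n = 2 each; log2 -0.35, edgeR adjusted p = 4.69e-07). Mtap, which salvages methionine, fell by 0.37 on the log2 scale (edgeR adjusted p = 7.17e-08). Ahcyl1, a relative of the S-adenosylhomocysteine hydrolase gene, fell by 0.42 on the log2 scale in Cre-positive cells (edgeR adjusted p = 7.9e-08) and rose by 0.29 in Cre-negative cells (edgeR adjusted p = 0.000195), with a difference of -0.71 (edgeR adjusted p = 2.34e-08).

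Active demethylation and base excision repair genes split evenly, with 6 of 18 tested higher and 6 lower after 4-OHT than after ethanol in Cre-positive cells, and 3 higher without library 4 or 11. Over all genes 21.1% rose and 17.2% fell in the comparison with ethanol. The rises in this list included Gadd45b and Gadd45g, stress-induced genes tied to demethylation and to growth arrest. Gadd45b had 99.6 ± 4.2 CPM, against 63 ± 2.5 CPM (SD, n = 2 each; log2 0.66, edgeR adjusted p = 1.6e-09), and Gadd45g 73.9 ± 1.8 CPM, against 55.9 ± 0.65 CPM (log2 0.40, edgeR adjusted p = 7.99e-07). In Cre-negative cells Gadd45g fell by 0.40 on the log2 scale with 4-OHT (edgeR adjusted p = 4.76e-05). The repair genes Xrcc1, a scaffold for ligation (log2 -0.44, edgeR adjusted p = 3.88e-06), and Smug1, a uracil DNA glycosylase gene (log2 -0.53, edgeR adjusted p = 4.64e-05), fell. Of 10 methyl-CpG readers 0 rose and 1 fell (2 without library 3), Zbtb4 (log2 -0.32, edgeR adjusted p = 0.000409), and its log2 fold change against untreated cells was -0.04.

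Germline genes whose promoters are methylated in somatic cells stayed mostly silent. Of 30 listed, 6 passed the filter, of which 2 rose and 1 fell with 4-OHT against ethanol in Cre-positive cells. Over all genes 21.1% rose and 17.2% fell. The gene that fell, Sycp2, passed the filter only through Cre-positive libraries without 4-OHT, where it reached 0.516 CPM, so the filter itself favoured a fall. Taf7l, a germ cell transcription factor gene, had 25 ± 1.4 CPM after 4-OHT, 14.7 ± 0.53 CPM after ethanol and 15.4 ± 4.6 CPM untreated (SD, n = 2 each; log2 0.77 over ethanol, edgeR adjusted p = 0.000111). It fell by 0.60 on the log2 scale with 4-OHT in Cre-negative cells (edgeR adjusted p = 0.0166). Brdt, a testis bromodomain gene, had 1.45 ± 0.029 CPM, against 0.637 ± 0.14 CPM after ethanol (log2 1.19, edgeR adjusted p = 0.00191), within the range of the Cre-negative cells. The gene that fell, Sycp2 of the meiotic chromosome axis, had 5 and 2 counts after 4-OHT, against 14 and 10 after ethanol, and 0 listed genes fell without library 3 or 12 or by DESeq2, and 2 with ethanol and untreated cells together as the reference.

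CXXC5 is known in the WNT and BMP pathways. Of 16 WNT target, feedback and Dishevelled genes 13 were tested, and 1 rose and 3 fell with 4-OHT against ethanol in Cre-positive cells. Over all genes 21.1% rose and 17.2% fell there. In the list 3 rose when ethanol and untreated cells together served as the reference. Ccnd1, the cyclin D1 gene, had 136 ± 0.81 CPM, against 227 ± 11 CPM (SD, n = 2 each; log2 -0.74, edgeR adjusted p = 2.08e-11), and rose by 0.30 in Cre-negative cells (edgeR adjusted p = 8.99e-05). The others that fell were Myc (log2 -0.29, edgeR adjusted p = 0.000562) and Dvl1, a Dishevelled gene (log2 -0.31, edgeR adjusted p = 3.51e-06). Lgr5, the R-spondin receptor gene, rose over ethanol (log2 0.68, edgeR adjusted p = 0.002) and had 0.07 against untreated cells (edgeR adjusted p = 0.748).

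Most BMP and TGF-beta target genes rose. Of 14, all tested, 9 rose and 1 fell with 4-OHT against ethanol in Cre-positive cells (median log2 0.20, against 0.03 over all genes, of which 21.1% rose), and 12 were higher than in untreated cells (21.0% of all genes). Under the alternatives 8 to 11 rose, with 11 rising and 0 falling without library 4, and 0 falling without library 12 or with ethanol and untreated cells together as the reference. In Cre-negative cells 0 rose and 4 fell with 4-OHT (3.33% and 2.65% of all genes), and the difference between the effects was above 0 and past the test for 9 of 14 (14.5% of all genes). Id3, an inhibitor of basic helix-loop-helix factors, had 402 ± 8 CPM, against 286 ± 15 CPM (SD, n = 2 each; log2 0.49, edgeR adjusted p = 3.69e-08), with -0.25 in Cre-negative cells (edgeR adjusted p = 0.00304). Smad6, an inhibitory SMAD gene, had 75 ± 1.3 CPM, against 53.6 ± 0.84 CPM (log2 0.48, edgeR adjusted p = 6.9e-07). Atoh8 rose by 0.53 on the log2 scale (edgeR adjusted p = 5.42e-07) and the ligand gene Bmp4 by 0.41 (edgeR adjusted p = 1.69e-05). After ethanol 7 of 14 were higher than in untreated cells in Cre-positive cells (8.11% of all genes) and 7 of 14 in Cre-negative cells (12.5%), and 9 of 14 were higher in untreated Cre-positive than Cre-negative cells (24.4%).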

How the data were processed

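The submitters' processing notes name the GRCm38 build, RSEM 1.2.30, STAR 2.5.2a and cutadapt 1.11, and edgeR with no version; neither the annotation nor the counting strand is stated there. The authors deposited expected counts per gene symbol, which are whole numbers, so rounding changed nothing. Counts were compared between the 2 libraries of each group and differed by more than sampling noise in all 6 groups. From these counts, edgeR 4.0.16 in R 4.3.3 gave TMM-scaled CPM, per-gene dispersions and quasi-likelihood F tests on 1 model of 6 groups over all 12 libraries, after filterByExpr (minimum count 10, 17609 genes), with Benjamini-Hochberg adjustment at 0.05. Intervals are the estimate ± 1.96 SE. The tests leave 6 residual degrees of freedom, and the common dispersion corresponds to a biological coefficient of variation of 3.44%. DESeq2 1.42.0, its size factors, no filter, only the compared groups, a joint ethanol and untreated reference and leaving out each library were alternatives. The procedure was checked on simulated data. Coordinates are from GENCODE M21 (GRCm38), in which 45126 symbols match 1 gene. Levels per kb divide CPM by the length of merged exons. The members and gene lists were chosen with earlier results of these data known. Genes named from the lists were up to 4 past the threshold with the smallest adjusted p-values in their list, and genes of alike pattern the 5 with the highest Pearson's r among genes of at least 1 CPM on average.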

Additional observations from a re-analysis of the deposited data

Results flagged for a closer look

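The change with 4-OHT against ethanol differed between Cre-positive and Cre-negative cells, by the interaction term of the edgeR model, for 3 of the 9 genes tested, where 28.3% of all genes were called. Uhrf1 had a difference of -0.41 on the log2 scale and was lower after 4-OHT in both Cre-positive libraries than in all 10 others. Dnmt1 had a difference of -0.25, with the same separation of libraries. The share of all genes with such a separation was not counted. Tet3 had a difference of -0.58, with a decrease in Cre-positive cells and an increase in Cre-negative cells that is an increase over a low ethanol group.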

How the results depend on the processing

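Over the 10 genes, the alternatives gave 567 log2 fold changes counted as the same, 31 that lost and 7 that gained a call, and 0 reversed. A value called in neither fit counted as the same whatever its direction. Where Cxxc5 was not tested, it counted as the same if its direction held and it moved by less than the combined SD of the compared groups. Of 9 tested, 2 were called for ethanol against untreated Cre-positive cells, against 1, with DESeq2 size factors and with no low-count filter. With only the compared groups in the fit, 4-OHT against ethanol in Cre-negative cells called 1648 of all genes, against 1054. Leaving out 1 library gave 4889 to 5947 genes and 2 to 4 of the 9 for 4-OHT against ethanol in Cre-positive cells (6736 and 5), and 274 to 636 genes and 0 to 1 of the 10 in Cre-negative cells (1054 and 1). For ethanol against untreated it gave 1440 to 2485 genes and 0 to 1 of the 9 in Cre-positive cells (2632 and 1), and 2775 to 3321 genes and 1 to 4 of the 10 in Cre-negative cells (4313 and 4). The cause was not tested; each such fit has 1 library fewer. The counts of listed genes were run under the same alternatives after seeing the data, and those that moved by over 1.5 times stand beside the counts. No paired analysis was possible because the library numbers differ in every group. Groups of 2 libraries and the low counts of Cxxc5, Dnmt3b and Tet1 limit the precision.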
